A study of Mus musculus with 2 samples.

Results

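The genes examined are the variable segments of the alpha and beta chains of the T cell receptor, chosen by gene symbol: every gene whose symbol begins with Trav or Trbv, 163 of the 32285 genes in the count tables (128 Trav and 35 Trbv). A T cell joins a variable segment to a joining segment and a constant gene to make each receptor chain, and the descendants of a T cell carry the same joined chains. Segment usage is therefore a coarse marker of which T cells share an origin, although unrelated T cells can use the same segment. The libraries read the 3′ end of transcripts, where the constant gene lies. Most cells gave no UMI of the variable segment, and the cause was not tested.

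The study asked what blockade of TIGIT, an inhibitory receptor of T and NK cells, adds to microwave ablation (MWA) of a tumor. C57BL/6 mice, young adult males by the study's methods, carried MC38 colon tumors on both flanks. Ablation was applied to the right-flank tumor near 300 mm3, and CD45+ cells were sorted from the left, un-ablated tumor on day 8 after MWA. Each group (MWA, and MWA plus TIGIT) gave 1 library, so the differences between groups have no replicate check. By the sample labels anti-TIGIT was injected intraperitoneally 3 times, every 3 days from day 1 after MWA, while the study's methods give another number of injections. The MWA group received an isotype control antibody by the study's methods. The number of mice behind each library was not given.

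T cells made up a similar part of both libraries, and the segments were read from nearly the same number of T cells in each. With at least 2 UMIs of Cd3d, Cd3e and Cd3g (CD3 chains) and fewer than 10 of C1qa, C1qb and C1qc (complement genes of macrophages), 4069 of 10217 barcodes (39.8%) of the MWA group entered, against 3831 of 10190 (37.6%) of the MWA plus TIGIT group. Their median depths were 3518 and 3708 UMIs. The segments had 2223 and 2676 UMIs in these barcodes, 91.0% and 91.1% of all segment UMIs of the libraries but 0.0129% and 0.0156% of the UMIs of the T cells. Segment UMIs thus lay mostly inside the T cell gate, at a depth that sees a segment in a minority of cells.

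The T cells were divided by the UMIs of Cd8a, Cd8b1, Cd4 and Foxp3, the last a transcription factor of regulatory T cells. CD8+ cells numbered 1646 in the MWA group versus 1800 in the MWA plus TIGIT group, CD4+ cells without Foxp3 604 and 622, and Foxp3+ cells 460 and 411. Cells with none of the 4 genes numbered 1243 and 889. With the genes of the gate and of the states left out, the T cell markers (Trac, Trbc1 and Trbc2) had 2274 and 2403 CPM (UMIs scaled to the total UMIs of the state) in CD8+ cells, beside 387 and 459.7 CPM of the macrophage markers (Adgre1, Csf1r and Apoe). Markers of B cells summed to 9.27 and 11.2 CPM in CD8+ cells. Regulatory T cell markers other than Foxp3 (Il2ra, Ikzf2, Ctla4 and Izumo1r) had 3339 and 3734 CPM in Foxp3+ cells, against 186 and 136 CPM in CD8+ cells.

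Most segments were seen at least once, and the unseen ones were mainly pseudogenes and repeated copies. Among T cells, 80 of the 128 Trav segments (62.5%) had a UMI, 69 of them in both libraries, and 37 reached 20 UMIs. The segments seen in a single library held few UMIs: 9 in the MWA group alone with 13 UMIs (Trav6d-3, Trav15d-1-dv6d-1, Trav3d-3, Trav9d-4, Trav11n, Trav7n-6, Trav4-2, Trav13-3 and Trav22) and 2 in the MWA plus TIGIT group alone with 3 UMIs (Trav9n-1 and Trav18). The other 48 Trav segments had 0 UMIs, which allows 0.135% of the segment UMIs of the MWA group, compared with 0.112% in the MWA plus TIGIT group: Trav11d, Trav12-4, Trav12d-1, Trav12d-2, Trav12d-3, Trav12n-1, Trav12n-2, Trav12n-3, Trav13d-2, Trav13n-2, Trav14d-1, Trav14d-2, Trav14n-1, Trav14n-2, Trav15-3, Trav15d-2-dv6d-2, Trav15d-3, Trav15n-1, Trav15n-2, Trav15n-3, Trav23, Trav3-2, Trav3d-2, Trav3n-2, Trav3n-3, Trav4-1, Trav4d-3, Trav4d-4, Trav4n-3, Trav4n-4, Trav5-2, Trav5d-2, Trav5d-3, Trav5d-4, Trav5n-2, Trav5n-3, Trav5n-4, Trav6-6, Trav6d-6, Trav6d-7, Trav6n-7, Trav7-2, Trav7d-5, Trav7n-5, Trav9d-2, Trav9d-3, Trav9n-2 and Trav9n-3. Of the 35 Trbv segments 23 (65.7%) were seen, each in both libraries, and 19 reached 20 UMIs. The 12 unseen were Trbv6, Trbv7, Trbv8, Trbv9, Trbv10, Trbv11, Trbv12-3, Trbv18, Trbv22, Trbv25, Trbv27 and Trbv28. The seen Trav segments therefore shared the UMIs unevenly, 2888 of their 3200 UMIs being in the 37 that reached 20.

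By annotated type, pseudogenes were seen least. In the Trav family 43 of 46 segments without a d or n copy letter were seen (2376 UMIs), 18 of 34 d copies (258 UMIs), 12 of 28 n copies (534 UMIs) and 7 of 20 pseudogenes (32 UMIs). In the Trbv family 22 of 22 functional segments (1695 UMIs) and 1 of 13 pseudogenes (4 UMIs) were seen. Whether a read can be given to a single gene also differed: of the 60 segments without a UMI, 38 had no stretch of 90 bases of their own, against 2 of the 103 with a UMI. The median share of such stretches that were unique was 0% for unseen and 86.4% for seen segments. For the 38, a segment without transcripts and a segment whose reads fit several genes cannot be told apart in these counts. Another 15 unseen segments had all of their stretches to themselves: Trav12-4, Trav15-3, Trav23, Trav4-1 and the unseen Trbv segments other than Trbv8.

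The parts of the T cell receptor that are not variable segments were counted alongside. The 60 Traj joining segments gave 1 UMI in each library and the 14 Trbj gave 0 in both, so no junction could be read. The constant gene Trac had 10326 and 12119 UMIs, Trbc1 8964 and 8704, and Trbc2 19366 and 20799. The 6 Trdv segments of the delta chain had 186 and 131 UMIs. For 100 UMIs of its constant genes the Trav family gave 14.2 UMIs in CD8+ cells of the MWA group, against 21.7 in the MWA plus TIGIT group, and the Trbv family 3.30 and 2.47. Variable segments of the alpha chain were thus read more often per constant-gene UMI than those of the beta chain.

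More CD8+ cells had a Trav UMI in the MWA plus TIGIT group, and the excess was in cells with Trav16 or its near-identical copies. A Trav UMI was found in 439 of 1646 CD8+ cells (26.7%, 95% interval 24.5 to 28.9) of the MWA group versus 745 of 1800 (41.4%, 39.1 to 43.7) of the MWA plus TIGIT group, at median depths of 4341.5 and 4087 UMIs. After each cell was thinned to 1000 UMIs, which left out 14 and 13 cells, the shares were 8.09% and 14.6%. Leaving out cells with Trav16, Trav16n or Trav16d-dv11 made them 18.4% (272 of 1479) and 18.2% (235 of 1290), at 4284 and 4229 UMIs, and 5.80% and 5.32% after thinning. Every cell left out held a Trav UMI, so by its construction this step lowers the share most where the copies were read most. A Trbv UMI went the other way, from 352 cells (21.4%, 19.4 to 23.4) to 305 (16.9%, 15.2 to 18.8), and from 6.43% to 4.20% after thinning. Without the Trav16 copies the Trbv shares were 20.96% and 18.8%, and 5.87% and 3.91% after thinning.

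In CD4+ and Foxp3+ cells the Trav shares of the groups lay closer together than in CD8+ cells. A Trav UMI was in 117 CD4+ cells (19.4%, 16.3 to 22.8) of the MWA group, compared with 127 (20.4%, 17.3 to 23.8) of the MWA plus TIGIT group, and a Trbv UMI in 111 (18.4%, 15.4 to 21.7) and 145 (23.3%, 20.04 to 26.8). Thinning brought the CD4+ Trbv shares to 5.38% and 5.16%, at median depths before thinning of 3446 and 3854.5 UMIs and with 9 and 2 cells left out. The CD4+ Trav shares were then 6.22% and 5.65%. Thinning is a single random draw, and the shares to be expected over all draws were 5.81% and 6.28% for CD4+ Trbv and 6.73% and 5.90% for CD4+ Trav, so the CD4+ Trbv shares lay closer together at equal depth than before, with their order changed in the draw only, and the CD4+ Trav shares changed order in both. Of the Foxp3+ cells, 127 (27.6%, 23.6 to 31.9) and 108 (26.3%, 22.1 to 30.8) had a Trav UMI, and 55 (11.96%) and 55 (13.4%) a Trbv UMI. Thinned, with 6 and 2 cells left out, Foxp3+ Trav shares were 13.2% and 10.0% and Trbv shares 4.41% and 3.42%, at median depths before thinning of 2589.5 and 2993 UMIs. The Foxp3+ Trbv shares thus changed order too, with expected values of 4.37% and 4.19%.

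Macrophage and B cell barcodes, which should lack the segments, held few. Macrophage barcodes numbered 3831 (MWA) and 4275 (MWA plus TIGIT), with median depths of 8566 and 10507 UMIs, and 15 (0.392%) and 21 (0.491%) of them had a Trav UMI and 8 (0.209%) and 8 (0.187%) a Trbv UMI. After thinning the Trav shares in macrophages were 0.0263% and 0.0472%. No B cell barcode had a segment UMI, which with 82 and 75 barcodes allows 3.66% and 4%, at median depths of 2036.5 and 2948 UMIs. The shares in macrophages were thus below 1% of barcodes for both chains, in barcodes chosen to lack CD3 UMIs, which can lower them. Cells with Trdc (delta constant gene) and none of Cd8a, Cd8b1, Cd4 and Foxp3 held a Trav UMI in 9 of 93 (9.68%) and 6 of 84 (7.14%), at 3614 and 3529 UMIs.

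Among CD8+ cells with a Trav UMI, different copies of the same segment were the most frequent in the 2 groups. Of all CD8+ cells, Trav16n was read in 120 of 1646 of the MWA group and Trav16 in 446 of 1800 of the MWA plus TIGIT group. Most CD8+ cells gave no Trav UMI, so the shares below are not shares of all CD8+ cells. Whether these copies are read more readily than other segments was not tested. Trav16n led in the MWA group and Trav16 in the MWA plus TIGIT group. Of the CD8+ cells with a Trav UMI, Trav16 was in 30 of 439 (6.83%, 4.66 to 9.61) of the MWA group versus 446 of 745 (59.9%, 56.2 to 63.4) of the MWA plus TIGIT group. Its UMIs went from 46 (5.61 CPM) to 794 (89.7 CPM), a log2 ratio of 4.0 (3.57 to 4.46), or 15.99-fold. Trav16n had the opposite direction, with 120 cells (27.3%, 23.2 to 31.8) in the MWA group, compared with 51 (6.85%, 5.14 to 8.90) in the MWA plus TIGIT group. Trav16n UMIs numbered 215 (26.2 CPM) and 78 (8.81 CPM), a log2 ratio of -1.57 (-1.97 to -1.19). Trav16d-dv11 differed less, with 18 cells (4.10%) and 14 (1.88%), 24 and 20 UMIs, and a log2 ratio of -0.37 (-1.31 to 0.54). Counted as 1 segment, a choice made after the data were seen, the 3 copies were in 38.0% and 68.5% of the cells with a log2 ratio of 1.54, so the ratio of Trav16 depended on keeping the copies apart.

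The lead of Trav16 and Trav16n was kept when a cell needed 2 UMIs of the segment. Trav16n was then in 47.0% of the MWA cells and Trav16 in 10.3% of them, and Trav16 in 75.2% of the MWA plus TIGIT cells. When UMIs were scaled to all Trav UMIs instead of all UMIs, the log2 ratio of Trav16 was 3.13 and that of Trav16n -2.44. The direction of both copies held under each setting tried.

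**Figure D1:**
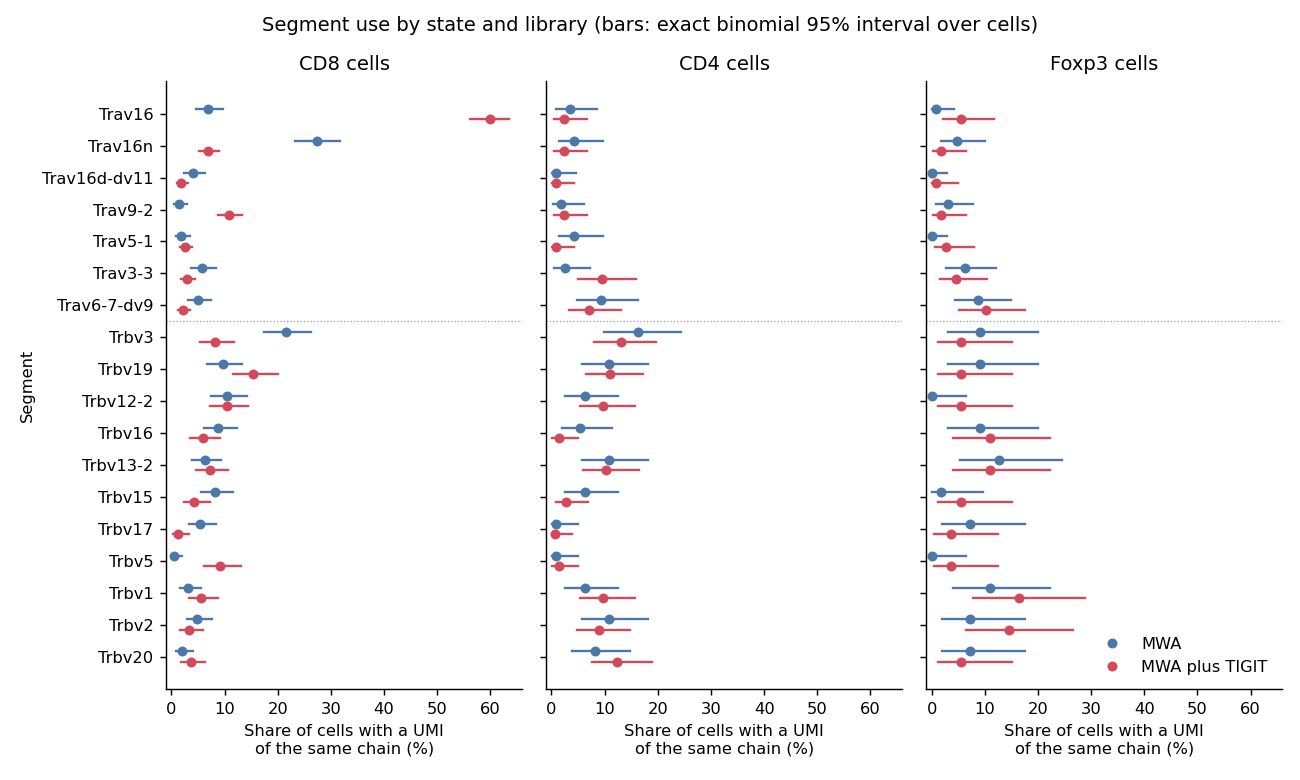
Share (%) of cells with a UMI of the chain that hold each of 18 segments, in CD8+, CD4+ and Foxp3+ cells; points are MWA (blue) and MWA plus TIGIT (red) and bars are exact binomial 95% intervals. Trav16 in CD8+ cells stands at 6.83% and 59.9%, and Trbv3 at 21.6% and 8.20%.

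The other named Trav segments of CD8+ cells were rarer than the leading Trav16 copy of each group, and 2 of them were higher in the MWA plus TIGIT group. Trav9-2 was in 6 cells (1.37%, 0.503 to 2.95) of the MWA group, against 81 (10.9%, 8.73 to 13.3) of the MWA plus TIGIT group. Its 6 and 86 UMIs (0.732 and 9.72 CPM) gave a log2 ratio of 3.73 (2.55 to 5.22), or 13.3-fold. Most of these cells held a single Trav9-2 UMI, and with 2 UMIs required the share in the MWA plus TIGIT group was 1.80%. Trav5-1 was in 8 (1.82%) and 19 cells (2.55%), with 10 and 32 UMIs and a log2 ratio of 1.57 (0.51 to 2.76). Those 2 segments thus went with Trav16 in direction. Trav3-3 was in 25 (5.69%) and 22 cells (2.95%), with a log2 ratio of -0.16 (-0.96 to 0.64). Trav6-7-dv9 was in 22 (5.01%) and 16 cells (2.15%), with a log2 ratio of -0.55 (-1.54 to 0.42). Their UMI counts were 29 and 28 for Trav3-3 and 23 and 17 for Trav6-7-dv9, so their cells and UMIs differed less than their shares, whose denominators were 439 and 745 cells.

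Few UMIs were counted for the segments of the semi-invariant alpha chains. Trav11, the segment of the invariant NKT alpha chain, had no UMI in CD8+ cells of either group, a count that allows 0.683% and 0.403% of the cells with a Trav UMI. Those limits cover counted UMIs alone, since 1 of the 254 stretches of 90 bases of Trav11 (0.394%) was its own and the rest it shares with Trav11d, so how many cells used it cannot be told. In CD4+ cells Trav11 UMIs were in 0 (allowing 2.56%) and 1 cell, and in Foxp3+ cells in 1 and 0 (allowing 2.78%). Trav1, the segment of the MAIT alpha chain, whose 330 stretches were all its own, was in 3 (0.683%) and 1 (0.134%) CD8+ cells, in 0 and 1 CD4+ cells, and in no Foxp3+ cell (allowing 2.36% and 2.78%). The 3 CD8+ cells with Trav1 in the MWA group all held Trav16n as well, so Trav1 was not read there apart from Trav16n.

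The copies named Trav16 lie apart on chromosome 14 (GRCm38, plus strand) and differ at few bases of the V exon. Trav16 (ENSMUSG00000076855) spans 53743104 to 53743705, Trav16n (ENSMUSG00000076822) 53351028 to 53351621, and Trav16d-dv11 (ENSMUSG00000076796) 53047287 to 53047821. Measured between gene midpoints, Trav16 is thus the nearest to Trac, 478959 bases from it, with Trav16n at 871039 and Trav16d-dv11 at 1174809 bases. Each V exon has 301 bases. With positions counted from 1 at the first base of the V exon, Trav16 and Trav16n differ at 4 (A51G, A193T, A194G, T251C; 98.7% identical), Trav16 and Trav16d-dv11 at 5 (G94A, A193T, A194G, T251C, A272G; 98.3%), and Trav16n and Trav16d-dv11 at 3 (G51A, G94A, A272G; 99.0%). Of the stretches of 90 bases in each transcript, 77.3% (256 of 331) were unique to Trav16, 65.0% (243 of 374) to Trav16n and 58.0% (153 of 264) to Trav16d-dv11. Where on the transcripts the reads fell was not measured. The exons are printed, 300 of the 301 bases from base 2 on, to show the few bases in which the V exons of the 3 copies differ. Capitals mark positions that differ among the copies. In GRCm38, exon 2 on the plus strand, they lie at chr14:53743406-53743705 (Trav16), chr14:53351322-53351621 (Trav16n) and chr14:53047522-53047821 (Trav16d-dv11).
Trav16: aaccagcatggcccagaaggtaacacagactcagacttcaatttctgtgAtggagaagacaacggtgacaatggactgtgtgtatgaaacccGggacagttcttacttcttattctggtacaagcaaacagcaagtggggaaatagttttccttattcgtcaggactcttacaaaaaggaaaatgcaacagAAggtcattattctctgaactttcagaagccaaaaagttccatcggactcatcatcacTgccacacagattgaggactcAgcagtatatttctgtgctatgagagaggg
Trav16n: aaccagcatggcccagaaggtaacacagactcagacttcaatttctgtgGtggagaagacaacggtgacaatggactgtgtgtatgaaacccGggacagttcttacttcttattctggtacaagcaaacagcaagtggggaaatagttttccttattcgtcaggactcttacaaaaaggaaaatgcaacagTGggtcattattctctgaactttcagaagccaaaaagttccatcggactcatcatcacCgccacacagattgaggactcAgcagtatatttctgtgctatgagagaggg
Trav16d-dv11: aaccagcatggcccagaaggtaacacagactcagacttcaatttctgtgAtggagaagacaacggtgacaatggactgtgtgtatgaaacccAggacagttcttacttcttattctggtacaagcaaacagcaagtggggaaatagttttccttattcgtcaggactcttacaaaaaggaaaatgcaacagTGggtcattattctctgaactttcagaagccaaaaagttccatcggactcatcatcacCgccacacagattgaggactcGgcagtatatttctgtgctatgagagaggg

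The copies were almost never read in the same cell. In CD8+ cells of the MWA group 30 cells held Trav16, 120 Trav16n and 18 Trav16d-dv11, and the overlaps were 0 for Trav16 with Trav16n, 0 for Trav16 with Trav16d-dv11 and 1 for Trav16n with Trav16d-dv11. In the MWA plus TIGIT group 446, 51 and 14 cells held them, with overlaps of 0, 1 and 0. An overlap of 0 allows 0.673% of the 446 cells with Trav16. The counts of Trav16 and Trav16n therefore come from separate cells in both groups.

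Among beta chain segments of CD8+ cells, Trbv3 led in the MWA group and Trbv19 in the MWA plus TIGIT group. Trbv3 (ENSMUSG00000076463, chr6:41048290-41048828, plus strand) was in 76 of 352 cells with a Trbv UMI (21.6%, 17.4 to 26.3) of the MWA group versus 25 of 305 (8.20%, 5.37 to 11.9) of the MWA plus TIGIT group. Its UMIs went from 110 (13.4 CPM) to 34 (3.84 CPM), a log2 ratio of -1.80 (-2.40 to -1.24). Trbv19 (ENSMUSG00000076475) was in 34 (9.66%, 6.78 to 13.2) and 47 cells (15.4%, 11.5 to 19.96), with 39 and 55 UMIs and a log2 ratio of 0.39 (-0.23 to 1.02). Trbv12-2 held its place with 37 (10.5%) and 32 cells (10.5%), as did Trbv13-2 with 22 (6.25%) and 22 (7.21%), and Trbv16 was in 31 (8.81%) and 18 (5.90%). Of these 5 most frequent Trbv segments, Trbv3 had the largest difference.

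The largest ratio of a Trbv segment with at least 20 UMIs belonged to Trbv5. It was in 2 cells (0.568%, 0.0689 to 2.04) of the MWA group, compared with 28 (9.18%, 6.19 to 13.0) of the MWA plus TIGIT group, with 2 and 29 UMIs and a log2 ratio of 3.75 (1.77 to 6.86); with 2 UMIs required the share in the MWA plus TIGIT group was 2.27%. The Trbv5 transcript has 25.8% of its 90-base stretches to itself and shares others with a long noncoding RNA gene (ENSMUSG00000103586). Trbv1 was in 11 (3.12%) and 17 cells (5.57%), with 11 and 25 UMIs and a log2 ratio of 1.07, which was -0.60 among cells with at most 5000 UMIs. The direction for Trbv1 thus depended on the deeper cells, and the size of the ratio of Trbv5 rested on 2 UMIs of the MWA group. Trbv17 was lower in the MWA plus TIGIT group, with 19 (5.40%) and 4 cells (1.31%), 27 and 6 UMIs and a log2 ratio of -2.28 (-3.85 to -0.97). Trbv15 had 29 (8.24%) and 13 cells (4.26%), 32 and 14 UMIs and -1.30 (-2.32 to -0.36). For Trbv2 the values were 17 (4.83%) and 10 cells (3.28%), 24 and 11 UMIs and -1.24 (-2.41 to -0.15). Among the 28 segments with at least 20 UMIs in CD8+ cells, the 5 lowest ratios were thus of Trav16n and 4 Trbv segments. The 5 highest were of Trav16, Trbv5, Trav9-2, Trav5-1 and Trbv1.

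Segments passed 2-fold between the groups more often than all genes tested in CD8+ cells, which were not matched to them in UMI count. Of 28 segments with at least 20 UMIs there, 10 differed at least 2-fold in CPM, 5 higher and 5 lower in the MWA plus TIGIT group, while 2.51% of the 10960 genes tested did so. The segments tested held few UMIs, 1539 in the 11 Trav and 804 in the 17 Trbv segments. How much of the contrast with all genes comes from low counts was not tested. The median log2 ratio was -0.18 for the segments and 0.12 for all genes. TMM factors of 0.964 and 1.04 lowered every CD8+ log2 ratio by the same amount (shift -0.10). With them 12 of 28 segments and 2.56% of genes differed 2-fold. Without the cells holding a Trav16 copy, a setting chosen after the data were seen, 5 of 24 segments and 2.06% of genes did. The count also depended on the UMI limit: 22 of 45 segments and 4.77% of genes at 10 UMIs, and 37 of 77 segments and 9.42% of genes with at least 1 UMI in each library. The 18 tested segments within 2-fold in CD8+ cells were Trav3-3, Trav6-7-dv9, Trav16d-dv11, Trav4-4-dv10, Trav13-1, Trav12-2, Trav19, Trbv19, Trbv12-2, Trbv16, Trbv13-2, Trbv13-1, Trbv13-3, Trbv12-1, Trbv14, Trbv29, Trbv20 and Trbv26.

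**Figure D2:**
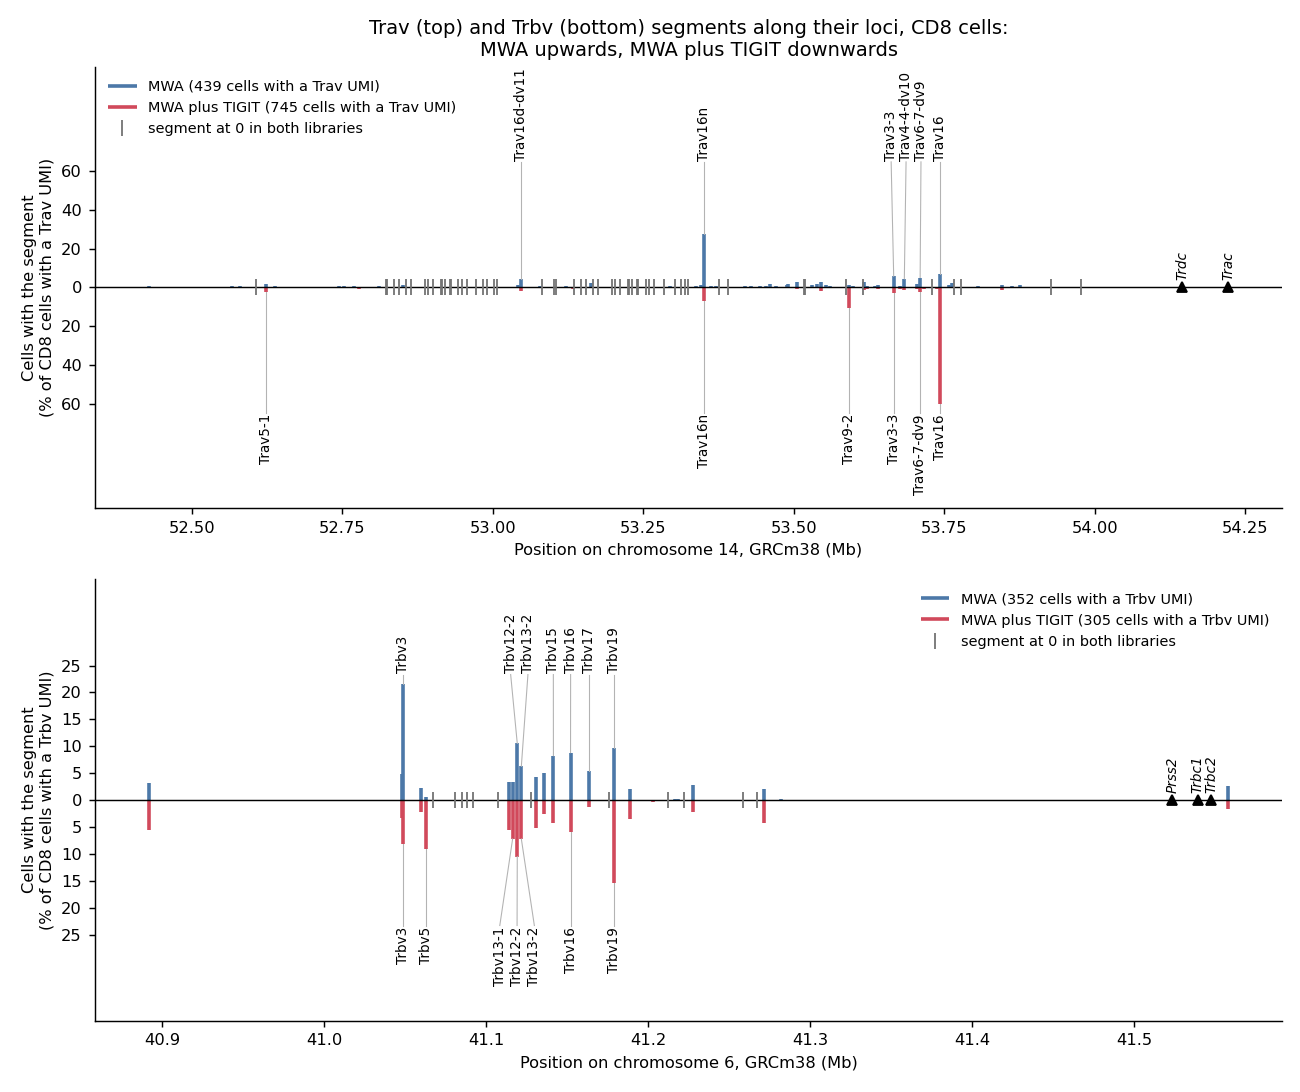
Share (%) of CD8+ cells with a UMI of the chain that hold each segment, by position on chromosome 14 (Trav) and chromosome 6 (Trbv) in Mb; bars point up for the MWA group (blue) and down for the MWA plus TIGIT group (red), grey ticks are segments at 0 in both, and triangles are Trdc, Trac, Prss2, Trbc1 and Trbc2. The tallest Trav bars are Trav16n (27.3%) upwards and Trav16 (59.9%) downwards.

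By position, alpha chain usage of CD8+ cells lay nearer to Trac in the MWA plus TIGIT group, and the copies of Trav16 made most of that difference. The 43 segments nearest to Trac (Trav23 to Trav6-4) were in 235 of 439 cells (53.5%, 48.7 to 58.3) of the MWA group, against 618 of 745 (83.0%, 80.1 to 85.6) of the MWA plus TIGIT group. The 43 segments between were in 41.2% (36.6 to 46.0) and 12.9% (10.6 to 15.5), and the 42 farthest (Trav13d-3 to Trav1) in 8.88% and 6.71%. With the Trav16 copies left out the nearest were in 71.7% and 76.5% of cells, the middle in 15.9% and 9.97% and the farthest in 13.4% and 16.1%. The middle stretch holds the n copies, which were in 33.3% (28.9 to 37.9) and 9.66% of CD8+ cells with a Trav UMI. In CD4+ cells the nearest Trav segments were in 68.4% and 63.0%, and in Foxp3+ cells in 67.7% and 64.8%, so the difference was a feature of the CD8+ cells. Trbv usage by position was alike in both groups in CD8+ cells, with 61.1% and 62.0% in the middle of the locus.

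CD4+ cells without Foxp3 showed no segment that differed 2-fold among those tested. Of 12 segments with at least 20 UMIs 0 differed at least 2-fold, while 3.74% of the 9195 genes tested did. At 10 UMIs 3 of 17 segments and 6.56% of genes did, and with at least 1 UMI in each library 16 of 50 segments and 11.5% of genes. The median log2 ratio was 0.28 for the segments and 0.14 for all genes. With both libraries counted together, the most frequent CD4+ Trav segments were Trav6-7-dv9, in 11 of 117 cells (9.40%) and 9 of 127 (7.09%), and Trav14d-3-dv8, in 7 (5.98%) and 9 (7.09%). No Trav segment of CD4+ cells thus reached the 27.3% of Trav16n (MWA) or the 59.9% of Trav16 (MWA plus TIGIT) in CD8+ cells. Trav13-1 was in 7 (5.98%) and 8 (6.30%) CD4+ cells. Trav4-3 had 7 (5.98%) and 5 cells (3.94%), with a log2 ratio of -0.37 (-1.76 to 1.01), the lowest of the 12. Trav3-3, with 18 UMIs under the limit, was in 3 (2.56%) and 12 cells (9.45%), a log2 ratio of 2.09 (0.27 to 4.52), and had the most CD4+ cells of the Trav segments in the MWA plus TIGIT group.

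Beta chain usage of CD4+ cells was spread over several segments in both groups. Trbv3 was in 18 of 111 cells (16.2%) and 19 of 145 (13.1%), with a log2 ratio of -0.35. Trbv20 was in 9 (8.11%) and 18 cells (12.4%), with a log2 ratio of 0.43. Trbv19 (12 and 16 cells), Trbv13-2 (12 and 15) and Trbv2 (12 and 13) had log2 ratios of 0.02, 0.09 and 0.46. The 3 highest ratios of the 12 segments tested in CD4+ cells were those of Trbv26, with 6 and 12 cells and 0.86 (-0.43 to 2.28), Trbv12-2, with 7 and 14 cells and 0.77 (-0.64 to 2.32), and Trbv1, with 7 and 14 cells and 0.58. Each of these 3 intervals that is printed includes 0. The Trav16 copies were rare in CD4+ cells, with 4 (3.42%) and 3 (2.36%) cells for Trav16, 5 (4.27%) and 3 (2.36%) for Trav16n and 1 and 1 for Trav16d-dv11.

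Foxp3+ cells had too few segment UMIs for more than 1 test. Trav6-7-dv9 alone reached 20 UMIs, so 0 of 1 segment differed at least 2-fold, while 3.86% of the 8265 genes tested did. It was in 11 of 127 (8.66%) and 11 of 108 Foxp3+ cells (10.2%), with a log2 ratio of 0.10 (-1.20 to 1.43), where the median of all genes was 0.07. At 10 UMIs 7 of 17 segments and 7.20% of genes differed 2-fold, and with at least 1 UMI in each library 18 of 48 segments and 12.6% of genes. Trav16 was in 1 (0.787%) and 6 (5.56%) Foxp3+ cells, with 1 and 12 UMIs and a log2 ratio of 3.56 (0.81 to 8.98), and Trav16n in 6 (4.72%) and 2 (1.85%). The direction of both was that of CD8+ cells, on few cells. It was not particular to them, since Trav6-3 had the same counts as Trav16 (1 and 6 cells, 1 and 12 UMIs) and Trav13n-1, lower in the MWA plus TIGIT group like Trav16n, was in 7 (5.51%) and 0 Foxp3+ cells (allowing 2.78%); both were named after their values were seen. Trav7-4 was in 8 (6.30%) and 1 (0.926%) Foxp3+ cells, with 10 and 1 UMIs and a log2 ratio of -3.34 (-8.78 to -0.53). Trav3-3 was in 8 (6.30%) and 5 (4.63%) Foxp3+ cells, Trav14d-3-dv8 in 4 (3.15%) and 6 (5.56%), Trav7-3 in 2 (1.57%) and 7 (6.48%), and Trav12-2 in 4 (3.15%) and 5 (4.63%). The most frequent Foxp3+ Trbv segments were Trbv1 with 6 of 55 (10.9%) and 9 of 55 cells (16.4%), Trbv13-2 with 7 and 6, Trbv2 with 4 and 8, Trbv16 with 5 and 6 and Trbv19 with 5 and 3. No Trbv segment of Foxp3+ cells was tested.

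Outside these states Trav16 and Trav16n had the direction seen in CD8+ cells, at lower shares and on few cells. Among cells with none of Cd8a, Cd8b1, Cd4 and Foxp3, Trav16 was in 9 of 215 (4.19%) of the MWA group versus 11 of 137 (8.03%) of the MWA plus TIGIT group with a Trav UMI, and Trav16n in 15 (6.98%) and 4 (2.92%).

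Among CD8+ cells with a single Trav segment read, usage was concentrated, and more so in the MWA plus TIGIT group. Most of the 1646 and 1800 CD8+ cells gave no Trav UMI and are not covered. The effective number of Trav segments (inverse Simpson index over cells with a single Trav segment) was 11.7 in the MWA group (403 cells, 63 segments) and 2.90 in the MWA plus TIGIT group (651 cells, 62 segments). The top segment held 26.6% (Trav16n) and 58.1% (Trav16) of those cells, and without it the numbers were 34.3 and 20.6. With d and n copies merged they were 6.69 and 2.24. For Trbv the CD8+ numbers were 11.7 and 13.9, so the beta chain was not more concentrated in the MWA plus TIGIT group. CD4+ cells had 34.3 and 35.1 for Trav and 13.4 and 11.97 for Trbv, and Foxp3+ cells 44.7 and 32.3 for Trav and 16.1 and 14.0 for Trbv. The Trav numbers of CD4+ and Foxp3+ cells in the MWA group fell to 20.8 and 28.9 with copies merged, and that of CD4+ cells was 70.9 when a state needed 2 UMIs of its marker. Cells of a clone are not independent, so the binomial intervals given here cover counting error of cells alone.

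In cells with exactly 1 segment of each chain, the most frequent pairs of CD8+ cells were built on Trav16n in the MWA group and on Trav16 in the MWA plus TIGIT group. The MWA group had 79 such cells with 55 pairs, 48 of them seen in 1 cell. Trav16n with Trbv3 was in 17 cells (21.5%, 13.1 to 32.2), Trav16n with Trbv15 in 3 (3.80%) and Trav4-4-dv10 with Trbv12-1 in 3, and 2 cells each held Trav12-1 with Trbv12-2, Trav16n with Trbv12-2, Trav16n with Trbv17 and Trav3-3 with Trbv19. The MWA plus TIGIT group had 90 cells with 53 pairs, 43 of them in 1 cell. Trav16 with Trbv5 was in 14 cells (15.6%, 8.77 to 24.7), Trav16 with Trbv19 in 13 (14.4%, 7.92 to 23.4) and Trav16 with Trbv12-2 in 6 (6.67%). Pairs in 2 cells each were Trav16 with Trbv13-2 or Trbv13-3, Trav16d-dv11 with Trbv12-2, Trav16n with Trbv1, Trav4-4-dv10 with Trbv12-1, Trav6n-6 with Trbv3 and Trav9-2 with Trbv13-1. A single pair thus led in the MWA group, while 2 pairs did so in the MWA plus TIGIT group. In CD4+ cells 21 cells had 20 pairs (Trav6-7-dv9 with Trbv19 in 2 cells) and 31 cells 31 pairs, and in Foxp3+ cells 16 cells had 16 pairs and 15 cells 15.

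Beta chain partners of Trav16n in the MWA group were mostly Trbv3. Among CD8+ cells with a Trbv UMI, Trbv3 was in 25 of 38 with Trav16n (65.8%, 48.6 to 80.4) and 51 of 314 without (16.2%). Trbv15 was in 8 of 38 (21.1%) and 21 of 314 (6.69%). Both beta segments were thus more frequent beside Trav16n than elsewhere in the MWA group.

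Trav16 in the MWA plus TIGIT group had several partners. Trbv5 was in 21 of 53 cells with Trav16 and a Trbv UMI (39.6%, 26.5 to 54.0) and in 7 of 252 without Trav16 (2.78%). Of the cells with Trbv5 and a Trav UMI, 21 of 23 (91.3%, 72.0 to 98.9) held Trav16, against 425 of 722 (58.9%) of those without Trbv5. Trbv5 in the MWA plus TIGIT group was thus mostly a partner of Trav16. Trbv19 was in 16 of 53 (30.2%, 18.3 to 44.3) with and 31 of 252 (12.3%) without Trav16, which is a weaker tie.

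A second alpha segment was read in some cells with Trav16. Trav9-2 (ENSMUSG00000094966, chr14:53590857-53591514, plus strand) was in 55 of 446 CD8+ cells with Trav16 (12.3%, 9.43 to 15.7) and 26 of 1354 without (1.92%) in the MWA plus TIGIT group. Of the 81 cells with Trav9-2, 55 (67.9%) held Trav16. Trbv5 was in 7 of 15 cells with Trav9-2 and a Trbv UMI (46.7%) and 21 of 290 without Trav9-2 (7.24%). Of the 7 cells with Trav9-2 and Trbv5, 6 held Trav16 as well, so the 3 segments were read together in few cells. Trav5-1 (ENSMUSG00000076761) was in 7 of 51 cells with Trav16n (13.7%, 5.70 to 26.3) and 12 of 1749 without (0.686%) in the MWA plus TIGIT group. Several Trav segments were read in 36 of the CD8+ cells with a Trav UMI (8.20%) of the MWA group, against 94 (12.6%) of the MWA plus TIGIT group, and several Trbv segments in 25 (7.10%) and 17 (5.57%). A cell with 2 alpha chains and a barcode with 2 cells cannot be told apart from these counts.

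The constant genes told the cells with Trav16 apart from the rest. A beta chain ends in Trbc1 or Trbc2, and the share of Trbc1 in their UMIs shows which is used. In CD8+ cells it was 31.2% (4383 of 14029 UMIs) in the MWA group versus 28.7% (4388 of 15310) in the MWA plus TIGIT group. In the MWA plus TIGIT group the cells with Trav16 had 8.07% Trbc1 (219 of 2713 UMIs, 7.07 to 9.16), and 13 of them had more Trbc1 than Trbc2 while 422 had more Trbc2. Cells with a Trav UMI but no Trav16 copy had 36.4% Trbc1. Trav16 thus went with Trbc2 in the MWA plus TIGIT group. The 30 cells with Trav16 in the MWA group had 36.3% Trbc1, so this tie was absent there.

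Among cells with Trav16 of the MWA plus TIGIT group, Trbc1 was lowest beside Trav9-2 and Trbv5. With Trav9-2 the share was 1.23% (4 of 324 UMIs, 0.34 to 3.13; 55 cells), and with Trbv5 1.43% (2 of 140 UMIs; 21 cells). With Trbv19 it was 9.90% (16 cells) and with other Trbv segments 14.2% (18 cells). Without Trav9-2 the cells with Trav16 had 9.0% (215 of 2389 UMIs; 391 cells), so the tie to Trbc2 was not made by the Trav9-2 cells alone. Trav9-2 without Trav16 had 26.6% (26 cells) and Trbv19 without Trav16 27.4% (31 cells), near the value of all CD8+ cells.

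Trav16n of the MWA group was split between the constant genes by beta segment. Its cells had 46.8% Trbc1 (624 of 1333 UMIs, 44.1 to 49.5), 63 of them with more Trbc1 and 52 with more Trbc2. Beside Trbv3 the share was 68.1% (201 of 295 UMIs, 62.5 to 73.4; 25 cells), and beside another Trbv segment 12.5% (16 of 128 UMIs, 7.32 to 19.5; 13 cells). Trbv3 without Trav16n had 52.4% (51 cells). Trav16n cells thus held at least 2 kinds of beta chain in the MWA group.

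**Figure D3:**
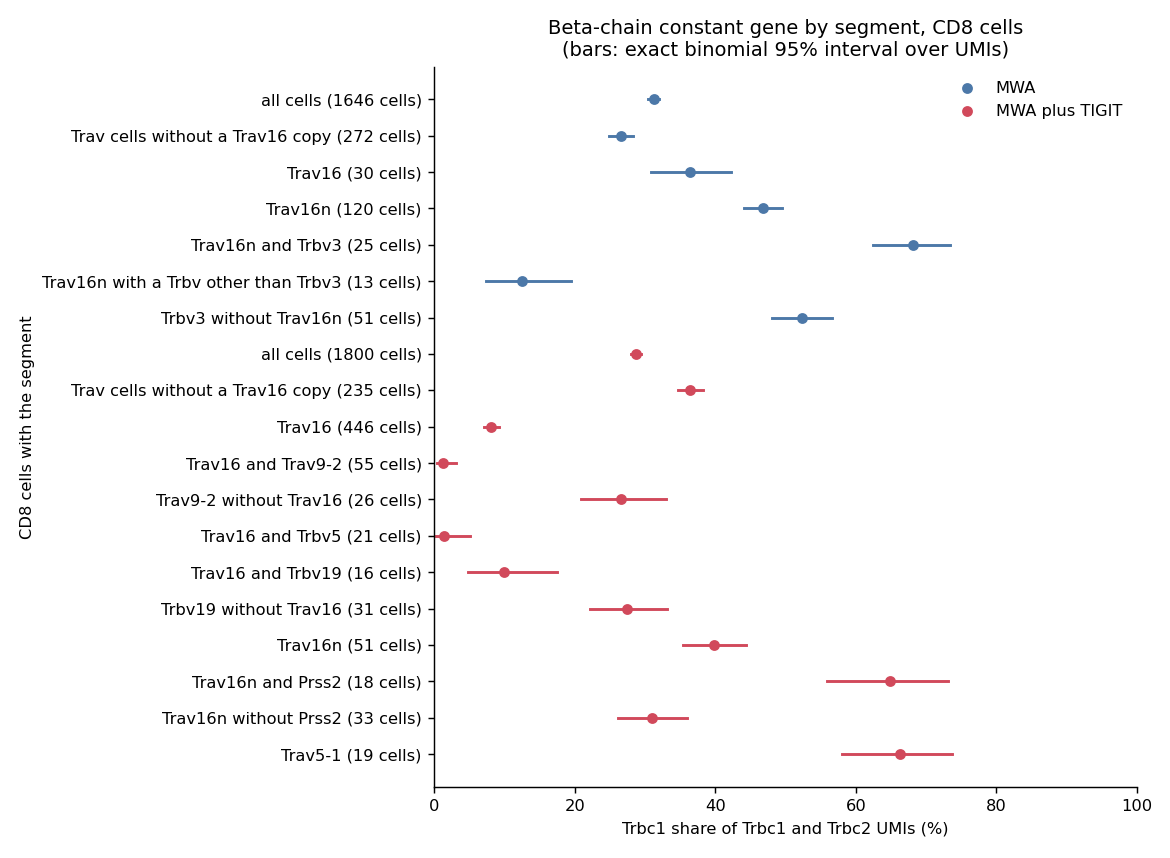
Trbc1 share (%) of Trbc1 plus Trbc2 UMIs in CD8+ cells grouped by segment, MWA group (blue) and MWA plus TIGIT group (red); bars are binomial 95% intervals over UMIs. Cells with Trav16 stand at 36.3% and 8.07%, and cells with Trav16n and Trbv3 of the MWA group at 68.1%.

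Genes outside the Trav and Trbv families, chosen after their values were seen, marked subsets of the cells with Trav16n. Prss2, a trypsinogen gene inside the Trb locus (chr6:41521787-41525079), had 14 UMIs in 4 CD8+ cells of the MWA group, compared with 196 UMIs in 45 cells (2.50%) of the MWA plus TIGIT group. In the latter it was in 18 of 51 cells with Trav16n (35.3%), 13 of 19 with Trav5-1 (68.4%) and 6 of 7 with both, against 20 of 1737 with neither (1.15%). No cell with Trav16 of that group held it (0 of 446, allowing 0.673%), and none of the 120 with Trav16n of the MWA group (allowing 2.50%). Trav16n thus stood beside Prss2 in the MWA plus TIGIT group and not in the MWA group. Cells with Trav16n and Prss2 had 64.8% Trbc1 (18 cells), cells with Trav16n without Prss2 30.9% (33 cells), and cells with Trav5-1 66.2% (19 cells).

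The gamma chain genes Trgv2 and Tcrg-C2 marked Trav16n in the MWA group instead. Their sum was 436 CPM in cells with Trav16n, in 54 of 120 cells (45.0%), and 616 CPM in cells with Trav16n and Trbv3, in 17 of 25 (68.0%). It was 32.5 CPM in cells with Trav16n and another Trbv segment (2 of 13 cells) and 80.05 CPM in CD8+ cells with neither Trav16n nor Trbv3 (204 of 1475 cells, 13.8%). The cells with Trav16n and Trbv3 thus differed from the other Trav16n cells in Trbc1 and in gamma chain UMIs. In the MWA plus TIGIT group cells with Trav16n had 73.3 CPM (3 of 51 cells) and cells with Trav16 45.7 CPM (42 of 446). The Trav16n cells of the groups were thus unlike in gamma chain and Prss2 UMIs. Whether the cells under any segment name are clones was not tested, since no junction was read.

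Cells with Trav16 in the MWA plus TIGIT group had more UMIs per total of effector and interferon genes than other CD8+ cells of that group with a Trav UMI. They were lower in 6 of 7 exhaustion genes tested. The 446 cells with Trav16 were compared with 299 others, at median depths of 3824.5 and 5070 UMIs. Of 10 effector genes tested 8 were higher, while 55.6% of the 8594 genes tested were, with a median log2 ratio of 0.73 against 0.06 for all genes. Gzmb, a cytotoxic granule protease, had 1110.45 CPM in cells with Trav16 and 462 CPM in the others, a log2 ratio of 1.26 (1.15 to 1.38). Ly6c2, a surface antigen of activated T cells, had 1.22, Gzmk, another granzyme, 1.21 and Ccl5, a chemokine, 1.09. Gzma was lower in cells with Trav16 at -0.16, and so was Cx3cr1, a chemokine receptor, at -0.72. The effector genes thus did not all go with Trav16.

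The 7 interferon-induced genes had higher CPM in cells with Trav16, with a median of 0.96. Rsad2 had 33.2 CPM in cells with Trav16 and 10.1 CPM in the others, a log2 ratio of 1.72 (0.95 to 2.56), Ifit3 1.44 and Isg15 1.11. A minority of cells carried these UMIs: Ifit3 was in 66 of 446 cells with Trav16 (14.8%) and 30 of 299 others (10.03%), and Usp18 in 7.17% and 9.36%. Of 6 stem-like genes 2 were higher beside Trav16, with a median of -0.44, and the lowest was Lef1, a transcription factor, with 62 UMIs in cells with Trav16 and 109 in the others and a log2 ratio of -0.97 (-1.44 to -0.51). Of 7 exhaustion genes tested 1 was higher, with a median of -0.25, the lowest being Rgs16, with 15.1 and 106 CPM and a log2 ratio of -2.82 (-3.43 to -2.26). Pdcd1, which encodes PD-1, had -0.69. Tigit itself had fewer than 20 UMIs beside Trav16 and in the others together and was not tested. Cycling genes were level, with 4 of 8 higher and a median of -0.03. In absolute size, the largest list medians beside Trav16 were thus those of the interferon and effector genes, and the cycling genes had the smallest.

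**Figure D4:**
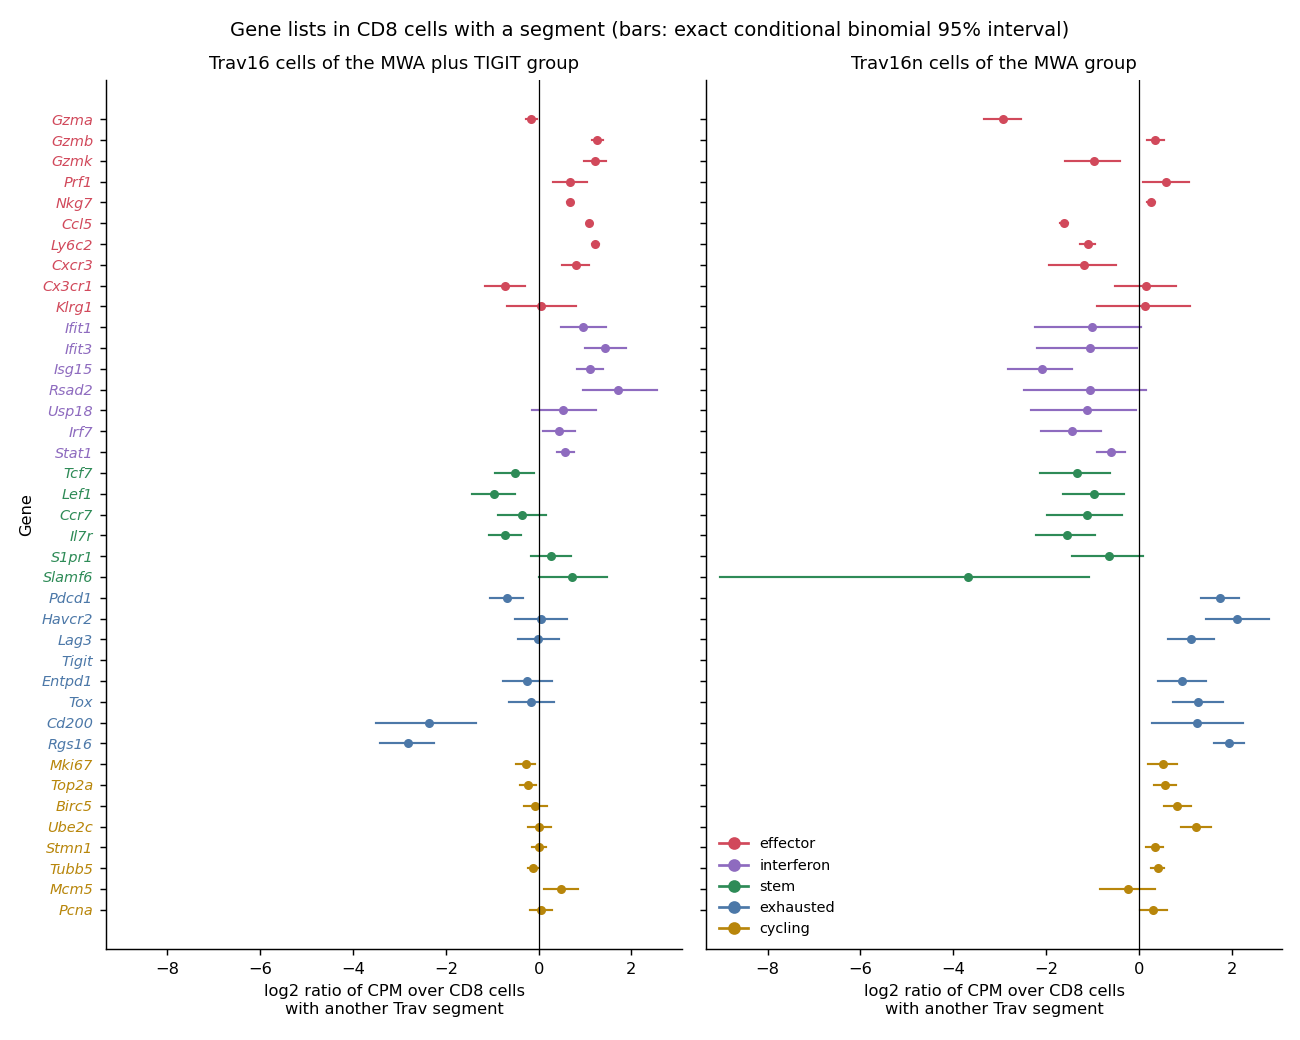
Log2 ratio of CPM (x axis) of the listed genes, coloured by list, in CD8+ cells with Trav16 over others with a Trav UMI in the MWA plus TIGIT group (left) and with Trav16n over others in the MWA group (right); bars are exact 95% intervals. Rgs16 stands at -2.82 on the left and 1.95 on the right, and Tigit has no point.

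Cells with Trav16n in the MWA group were high in exhaustion genes and low in stem-like and interferon genes. The 120 cells with Trav16n were compared with 319 others with a Trav UMI, at median depths of 5738.5 and 4856 UMIs. Of 7 exhaustion genes tested 7 were higher, while 57.1% of the 7402 genes tested were, with a median of 1.28 against 0.07 for all genes. Beside Trav16n, Havcr2, which encodes TIM-3, had a log2 ratio of 2.11 (1.45 to 2.80), Rgs16 1.95 and Pdcd1 1.75 (1.34 to 2.17). None of the 6 stem-like and none of the 7 interferon genes was higher, with medians of -1.23 and -1.06. Effector genes were divided beside Trav16n, with 5 of 10 higher, Gzma at -2.93 (-3.35 to -2.53) and Prf1 (perforin) at 0.59. Cycling genes were higher for 7 of 8, with a median of 0.46. Trav16n of the MWA group and Trav16 of the MWA plus TIGIT group thus differed in direction in exhaustion and interferon genes. Of the 299 others compared with Trav16 of the MWA plus TIGIT group, 51 held Trav16n.

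Cells with Trbv3 in the MWA group, many of which held Trav16n, were also high in exhaustion genes. Of the 30 with Trbv3 and a Trav UMI, 25 (83.3%) held Trav16n, so the comparisons of Trbv3 and of Trav16n share cells. Compared with 276 other CD8+ cells with a Trbv UMI, the 76 cells with Trbv3 were higher in 7 of 7 exhaustion genes (median 1.34), 0 of 6 stem-like genes (-1.85), 1 of 6 interferon genes (-0.80), 5 of 10 effector genes (-0.13) and 6 of 8 cycling genes (0.20), where 56.2% of the 6881 genes tested were higher. In the MWA plus TIGIT group the 25 cells with Trbv3 were higher in 5 of 7 exhaustion genes (0.88), 3 of 6 stem-like genes (0.04), 0 of 7 interferon genes (-0.97), 3 of 10 effector genes (-0.89) and 3 of 8 cycling genes (-0.15), where 50.7% of the 6994 genes tested were higher. Most exhaustion genes were thus higher beside Trbv3 in both groups. Among the genes most raised beside Trbv3 of the MWA plus TIGIT group, named after their values were seen, were genes of myeloid cells, such as Il1b (28 UMIs in 4 of 25 cells, log2 ratio 4.30) and Lst1 (25 UMIs in 5 cells, 2.67).

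The same lists were compared for the rarer Trav16 copy of each group and for Trav9-2. Against 409 others, the 30 cells with Trav16 in the MWA group were higher in 7 of 7 interferon genes (median 1.28) and 7 of 10 effector genes (0.09), and in 0 of 7 exhaustion genes (-0.68) and 5 of 6 stem-like genes (1.02), where 48.3% of all genes tested were higher. Few of the 30 cells with Trav16 carried some of these UMIs, as Rsad2 had 12 UMIs in 2 of them. Against 694 others, the 51 cells with Trav16n in the MWA plus TIGIT group were higher in 5 of 7 exhaustion genes (0.70; Rgs16, the highest, in 5 of the 51 cells, 9.80%, and 60 of the others, 8.65%), 3 of 7 interferon genes (-0.06) and 4 of 6 stem-like genes (0.17), where 47.5% of all genes tested were higher. The others differed between these comparisons: 446 of the 694 held Trav16, against 30 of the 319 others for Trav16n of the MWA group, and 120 of the 409 held Trav16n, while for Trav9-2 below 391 of the 664 others and 55 of the 81 cells held Trav16. What belongs to the segment and what to the others cannot be told apart here. Transcripts of macrophages differed too, with Ccl2 at -4.55, Spp1 at -2.55 and Tyrobp at -2.08 beside Trav16n of the MWA plus TIGIT group, genes named after their values were seen. Against 664 others, the 81 cells with Trav9-2 in the MWA plus TIGIT group were higher in 8 of 8 cycling genes (0.68) and in 1 of 6 stem-like genes (-0.52), where 53.9% of all genes tested were higher.

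Among all genes, those with the largest ratios beside Trav16 and Trav16n were named after their values were seen. The lowest beside Trav16 of the MWA plus TIGIT group were the neutrophil genes S100a9, with 1 UMI against 113 in the others (log2 ratio -6.98), and S100a8, with 4 against 205 (-5.84), which came from 4 and 7 of the 299 others. In cells with Trav16 of that group Trbc1 was also among the lowest, with a log2 ratio of -2.65 and UMIs in 37 of 446 cells (8.30%) against 186 of 299 others (62.2%). Igkc, an immunoglobulin light chain gene, was among the highest beside Trav16, at 1.68 (1.27 to 2.11), with UMIs in 131 of 446 (29.4%) and 25 of 299 cells (8.36%). Klre1, a receptor of the NK family, was low beside Trav16, with UMIs in 12 of 446 and 65 of 299 cells and a log2 ratio of -3.04. In cells with Trav16n of the MWA group Actg1, a cytoplasmic actin gene, was low, with UMIs in 66 of 120 (55.0%) against 314 of 319 others (98.4%) and a log2 ratio of -1.50. Tcrg-C2 was high beside Trav16n, at 2.47 (2.07 to 2.89), with UMIs in 48 of 120 and 36 of 319 cells. Each of the 2 leading alpha segments thus marked cells that differed in single genes as well as in the lists.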

How the data were processed

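The values are UMI counts of the 10x Genomics 3′ v3.1 libraries, from the gene tables the authors deposited. Processing notes name Cell Ranger 6.1.1 while the table header names cellranger 4.0.0; the notes give build mm10. Barcodes with at least 2 CD3 UMIs and fewer than 10 C1q UMIs entered, and 2 and 8 of them had over 10% mitochondrial UMIs or under 200 genes and were kept. The libraries share 37 barcode sequences (14 and 16 in the gate), and doublets were not removed in the main values. CD8+ means at least 1 UMI of Cd8a or Cd8b1 and none of Cd4 and Foxp3, CD4+ at least 1 of Cd4 and none of the others, and Foxp3+ at least 1 of Foxp3 and none of Cd8a and Cd8b1. Macrophage barcodes had at least 10 C1q UMIs, and B cell barcodes at least 3 of Cd79a, Cd79b and Ms4a1, both without CD3 UMIs.

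UMIs of a state were summed and scaled to CPM. Log2 ratios are MWA plus TIGIT over MWA with exact conditional binomial intervals, and shares have exact binomial intervals, all at 95% and for counting error only; no test between groups was run. Genes with at least 20 UMIs over both sides were tested for a 2-fold difference. Cells were thinned to 1000 UMIs in 1 random draw, and expected shares without a draw were added after the data were seen. A count of 0 was given the limit of 3 counts. The positions and V exons come from GENCODE M21 and GRCm38, in which 163 of 163 segments were found by gene ID, and a 90-base stretch is unique when no other annotated transcript holds it.

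Named segments are the 5 Trav and 5 Trbv with most cells in each state, the 5 highest and 5 lowest ratios in CD8+ cells (3 and 3 in CD4+ and Foxp3+), Trav11, Trav1, near-identical copies of these and the 5 most frequent pairs. Members and gene lists were chosen with earlier results of these data known. Alternatives were CD3 of at least 3 UMIs, C1q below 3, cell quality limits, at most 5000 UMIs, 2 UMIs for a state or a segment, other UMI limits, TMM factors, scaling to chain UMIs, removal of shared barcodes and of the highest doublet scores (0.8% per 1000 barcodes; 835 and 831 barcodes, 153 and 153 in the gate). Python 3.11.15, numpy 2.4.6, scipy 1.17.1, pandas 2.3.3, matplotlib 3.10.9, scanpy 1.11.5 (scrublet), R 4.3.3 and edgeR 4.0.16 were used. The scripts were first run on simulated counts with known differences, which they recovered.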

Additional observations from a re-analysis of the deposited data

Results flagged for a closer look

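Barcodes outside the T cell gate were not analysed for usage, and some held segments. Among barcodes with CD3 UMIs and 10 or more C1q UMIs, 116 of 401 (28.9%) of the MWA group, against 113 of 296 (38.2%) of the MWA plus TIGIT group had a segment UMI. Among those with fewer than 2 CD3 and fewer than 10 C1q UMIs, 23 of 1491 (1.54%) and 32 of 1486 (2.15%) did.

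Cells with UMIs of both Cd4 and Cd8a or Cd8b1 belonged to no state above. Of those with a Trav UMI, 4 of 18 (22.2%, 95% interval 6.41 to 47.6) held Trav16n in the MWA group, and 10 of 23 (43.5%, 23.2 to 65.5) held Trav16 in the MWA plus TIGIT group.

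For 4 of the 10 segments compared (the 5 Trav and 5 Trbv with most CD8+ cells) the share in CD8+ cells minus that in CD4+ cells had a different sign in the 2 groups; these differences were not tested. Trav9-2 had -0.343 percentage points in the MWA group but 8.51 in the MWA plus TIGIT group. Trav3-3 had 3.13 and -6.50, Trbv3 5.37 and -4.91, and Trbv19 -1.15 and 4.38 percentage points.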

How the results depend on the processing

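No paired analysis was possible because each group has 1 library. Under 19 settings the 36 main results gave 339 alternative values. Of these, 280 were counted as the same, 59 as moved and 0 as turned in direction. Of 620 values of other segments and states 1 turned direction: the Trbv1 log2 ratio of CD8+ cells was -0.60 among cells with at most 5000 UMIs, and the cause was not tested. These counts take each group's share by itself, and such a share has no direction to turn. The 0 therefore covers only the main results that are log2 ratios between the groups. Between groups, thinning also changed the order of the Trav shares of CD4+ cells and the Trbv shares of Foxp3+ cells. The Trbv shares of CD4+ cells changed order in the single draw but not in the expected shares.

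Thinning to 1000 UMIs lowers every share by its construction. A Trav UMI was then in 8.09% and 14.6% of CD8+ cells (MWA, then MWA plus TIGIT), 6.22% and 5.65% of CD4+ cells and 13.2% and 10.0% of Foxp3+ cells, and a Trbv UMI in 6.43% and 4.20%, 5.38% and 5.16%, and 4.41% and 3.42%. These are 1 random draw; the expected shares, added after the data were seen, were 7.88% and 14.7%, 6.73% and 5.90%, and 12.1% and 10.3% for Trav and 5.92% and 4.17%, 5.81% and 6.28%, and 4.37% and 4.19% for Trbv. With at most 5000 UMIs, which leaves shallower cells, a Trav UMI was in 21.9% of MWA CD8+ cells and 16.9% of MWA plus TIGIT CD4+ cells, and a Trbv UMI in 18.2% and 11.8% of CD8+ cells and 19.6% of MWA plus TIGIT CD4+ cells. Trav16n was in 22.2% of MWA cells and Trav16 in 68.7% of MWA plus TIGIT cells, and the Trav16n log2 ratio was -1.15; the cause was not tested.

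Requiring 2 UMIs of a segment gave Trav16 10.3% and 75.2% and Trav16n 47.0% (MWA); the cause was not tested. Requiring 2 UMIs for a state gave 70.9 effective Trav segments and a Trbv share of 26% in MWA CD4+ cells, from fewer and deeper cells. As a share of Trav UMIs, Trav16n was 32.7% in the MWA group. Scaled to chain UMIs, the log2 ratios were 3.13 for Trav16 and -2.44 for Trav16n, since Trav16 is itself much of the total.

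A lower UMI limit adds genes with few counts. At 10 UMIs 22, 3 and 7 segments and 570, 680 and 699 genes differed 2-fold in CD8+, CD4+ and Foxp3+ cells, and with 1 UMI in each library 37, 16 and 18 segments and 1312, 1419 and 1489 genes. Settings chosen after the data were seen merge copies or drop cells. With the Trav16 copies as 1 segment the shares were 38.0% and 68.5% and the log2 ratio 1.54, without their cells 5 CD8+ segments differed 2-fold, and with d and n copies merged the effective Trav numbers of the MWA group were 6.69 (CD8+), 20.8 (CD4+) and 28.9 (Foxp3+).

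Group differences rest on 1 library each, so differences between mice, tumors and library preparations cannot be told apart from treatment. Most cells gave no segment UMI, junctions were not read, and cells sharing segments need not share a clone. Reads that fit several copies are not in the counts, and the read length was not given, so 90-base stretches are an assumption. Macrophage transcripts such as Apoe were present in every state.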
